A study of Capsicum annuum with 12 samples.

Results

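The stretches described here are the half-megabase pieces of the pepper genome in which H3K4me3 was not found by both replicate libraries. The 12 assembled chromosomes were cut into bins of 500 kb, counted from the first base up to the last peak end, and a bin was taken when no base in it lay in peaks of both H3K4me3 replicates. This rule gave 1079 of 6139 bins, or 17.6%, which together hold 538 Mb of a span of 3066 Mb. They are called H3K4me3-free bins below, and the remaining 5060 are called the other bins. The bins were thus chosen by their H3K4me3 values, so that mark is given only as a description, and tests are made only on the other marks.

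The libraries come from chromatin immunoprecipitation sequencing of young leaves of Capsicum annuum, cultivar 59, with no treatment, age or genotype contrast in the labels. Each of the 3 marks, H3K4me3, H3K27me3 and H3K9me2, had 2 immunoprecipitated libraries, each with its own peak list, and the 6 input samples enter only as the control of that calling. The labels do not say whether replicates were separate plants, so the spread between them may be technical. A leaf sample mixes many cell types, and a mark carried by few cells cannot be told apart from one that is weak in all of them.

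H3K4me3, the trimethylation of lysine 4 of histone H3, sits at the start of transcribed genes and is a usual sign of active promoters in plants. H3K27me3 is laid down by Polycomb repressive complexes over genes that are held silent in a tissue, and in plants it is mostly found on genes in the chromosome arms. H3K9me2 is the plant mark of constitutive heterochromatin, kept up together with non-CG DNA methylation over transposons and other repeats, which fill much of the large pepper genome around the centromeres. No gene was assigned to a bin, since no gene table of the build was used here.

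The H3K4me3-free bins were nearly empty of H3K4me3 peaks in each single library too. No peak base of either replicate was found in 982 of the 1079 bins. A base was found in replicate 1 alone in 44 bins and in replicate 2 alone in 49, while 4 bins held bases of both replicates that did not meet. The H3K4me3-free bins held 52 and 74 H3K4me3 peaks in replicates 1 and 2, against 34415 and 33781 in the other bins. The few peaks in them were weak, with a median fold over the local background of 4.83 and 4.13, against 25.02 and 24.4 in the other bins (authors' values, one per peak). They rested on a median of 13 and 15.5 fragments over the summit, against 73 and 81. In replicate 2, 22 of the 74 peaks had a high local background, which here means more than 5 times the lowest of the library, and in replicate 1 none of the 52 did.

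Bins close to the limit of the rule held few or no shared H3K4me3 bases on either side of it. Just inside it, the bin with the most H3K4me3 in a single replicate was that on chromosome 7 from 22000001 to 22500000. It had 0 bp in replicate 1 and 3522 bp in replicate 2, where the median of the other bins was 3122.5 bp. The bin on chromosome 2 from 500001 to 1000000 followed with 0 and 1890 bp, and that on chromosome 9 from 93000001 to 93500000 with 1027 and 0 bp. Then came chromosome 1 from 60500001 to 61000000, with 798 and 0 bp, and a further bin of chromosome 7 from 218500001 to 219000000, with 0 and 773 bp. Just outside it, the bin on chromosome 4 from 189000001 to 189500000 was kept out by 3 shared bases. The next were kept out by 32 shared bases on chromosome 10 from 57000001 to 57500000, and 99 in the bin of chromosome 2 from 50000001 to 50500000. Chromosome 5 from 24500001 to 25000000 had 131 shared bases. The bin of chromosome 11 from 211500001 to 212000000 had 158. In shared bases, bins on both sides of the limit can thus differ by only a few, while single replicates can differ by more.

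Every chromosome had such bins, but they made up a smaller share of chromosomes 1 and 2. Over the 12 chromosomes, 17.5% ± 4.25 (SD) of the bins were H3K4me3-free. The share was highest on chromosome 11, where 118 bins made up 21.3%, and on chromosome 7, where 113 made up 21.1%. It was lowest on chromosome 2, with 26 bins or 7.26%, and on chromosome 1, with 74 bins or 11.1%. Chromosome 3 came next from below with 90 bins or 15.5%, and the remaining 7 lay between 17.5% on chromosome 6 and 20.1% on chromosome 4.

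**Figure D1:**
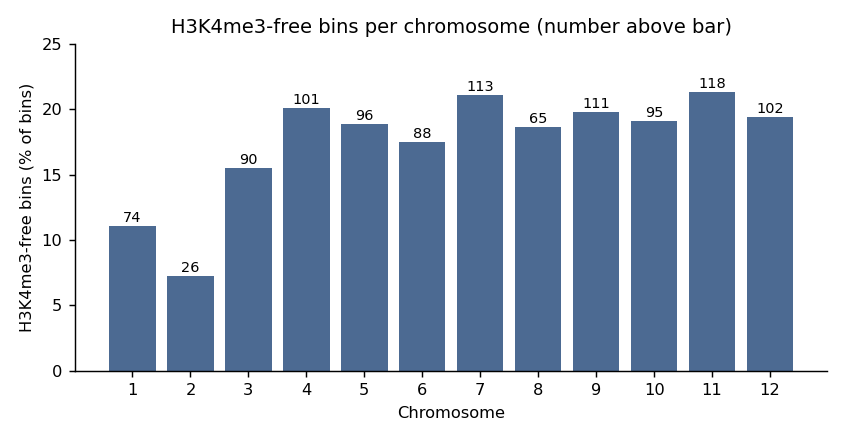
Bars give the percent of 500 kb bins on each of the 12 chromosomes that are H3K4me3-free, and the number printed over a bar is their count. Chromosomes 2 and 1 stand lowest at 7.26% and 11.1%, and the others lie between 15.5% and 21.3%.

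The H3K4me3-free bins lay mainly in the inner part of the chromosomes. In the outer 15% at each end, together the outer 30% of a chromosome's span, lay 153 of them or 14.2%, against 1696 or 33.5% of the other bins. The middle 40% held 634 or 58.8% of them, against 1818 or 35.9% of the other bins, and the stretches between held 292 or 27.1%, against 1546 or 30.6%. Over the 12 chromosomes the outer share was 14.8% ± 4.04 (SD) in H3K4me3-free bins, with a range of 7.78% to 23.1%, against 33.5% ± 1.33 in the other bins, and it was lower on 12 of 12. The median distance from the nearer end was 85.3 Mb in H3K4me3-free bins and 58.75 Mb in the other bins. These shares follow from where H3K4me3 peaks lie, which chose the bins, and carry no test.

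Along the span, in classes of 5%, the share of bins that were H3K4me3-free was 2.94% at the first end and 29.7% in the class from 40% to 45%. It was 8.25% in the last class. The slope towards the last end was uneven, with 15.6% from 85% to 90% of the span, against 11.2% in the class before it and 4.90% in the class after it. No first bin of a chromosome was H3K4me3-free, while 4 of the last bins were, each of them shorter than a full bin.

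**Figure D2:**
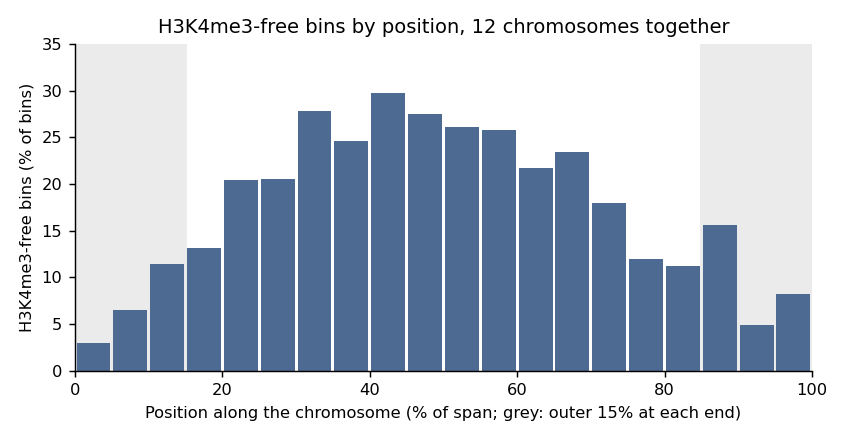
Bars give the percent of bins that are H3K4me3-free in 20 classes of 5% of the chromosome span, pooled over the 12 chromosomes, with the outer 15% at each end in grey. The share is 2.94% in the first class, 29.7% from 40% to 45%, and has a separate high class of 15.6% from 85% to 90%.

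Most runs of H3K4me3-free bins were 1 or 2 bins long. The 1079 bins formed 767 runs of adjacent bins, of which 549 were a single bin, 154 were 2 bins, 47 were 3 and 11 were 4. There were 3 runs of 5 bins and 1 each of 6, 7 and 9. Runs of at least 2 held 530 bins or 49.1%, and the 64 runs of at least 3 held 222 or 20.6%. The share of bins in runs of at least 2 depended on bin width, with 72.3% in bins of 250 kb and 19.3% in bins of 1 Mb. The bin after an H3K4me3-free bin was itself H3K4me3-free in 312 of 1075 cases, or 29.0%, against 767 of 5052 or 15.2% after an other bin.

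Measured without bins, the distance between neighbouring intervals of shared H3K4me3 had a median of 21277 bp over 31584 gaps. At least 500 kb separated the neighbours in 1452 gaps and at least 1 Mb in 364. The 5 longest gaps enclosed the runs of 9, 7 and 6 bins and 2 of the 3 runs of 5 bins, those on chromosomes 6 and 11. The third run of 5, on chromosome 12 from 177000001 to 179500000, is not described further, as ties were broken by chromosome number.

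H3K27me3, the Polycomb mark, was much lower in the H3K4me3-free bins, in both libraries and on every chromosome. Its peaks covered 2312 and 1938 bp per Mb of H3K4me3-free bins in replicates 1 and 2, against 9419 and 8274 bp per Mb of the other bins, which is a ratio of 0.245 and 0.234. By chromosome, replicate 1 ranged from 1016 bp per Mb on chromosome 8 to 5085 on chromosome 1 in H3K4me3-free bins, against 6679 on chromosome 9 to 14131 on chromosome 2 in the other bins. In replicate 2 the ranges were 781 to 4732 bp per Mb and 5867 to 12348 bp per Mb. The ranges of the 2 kinds of bin did not overlap in either library. With the libraries averaged, H3K4me3-free bins had 2261 ± 1113 bp per Mb and the other bins 8842 ± 2364 (SD, 12 chromosomes), a mean difference of −6581 ± 2152 bp per Mb. An exact two-sided sign-flip test over the 12 chromosomes gave an adjusted p of 0.00146 (unadjusted 0.000488, the smallest it can give). The chromosomes all belong to the same genome and are no biological replicates, so this p measures how evenly the difference holds along the genome.

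Fewer of the H3K4me3-free bins held H3K27me3 at all. A base in peaks of both H3K27me3 replicates was found in 371 or 34.4% of them, against 3379 or 66.8% of the other bins and 61.1% of all bins. Over chromosomes the shares were 34.8% ± 6.74 in H3K4me3-free bins and 66.3% ± 5.85 in the other bins, with a difference of −31.5 ± 5.75 points and an adjusted exact sign-flip p of 0.00146, lower on 12 of 12. The median H3K4me3-free bin had 0 bp of H3K27me3 in both libraries, against 1668 and 1399.5 bp in the other bins. Where shared H3K27me3 was present, its median length was 1175 bp in H3K4me3-free bins and 2822 bp in the other bins.

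The H3K27me3 peaks that did lie in H3K4me3-free bins were fewer and somewhat weaker. There were 3.74 and 3.07 peaks per Mb in H3K4me3-free bins, against 13.95 and 12.4 in the other bins. Their median fold was 6.92 and 7.70, against 8.25 and 8.49, and their median width 426 and 421 bp, against 465 and 468 bp. They rested on a median of 19 and 18 fragments over the summit, against 21 and 20. An overlap of at least 50% of the shorter peak in the other replicate was found for 64.4% and 79.3% of them, against 73.2% and 84.3% of the peaks in the other bins. A high local background was found for 7.50% and 1.82% of the peaks in H3K4me3-free bins, against 0.788% and 0.668% in the other bins, and its part in these peak values was not tested. The coverage ratio was 0.234 and 0.233 without peaks of high background.

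Peaks of H3K9me2, the heterochromatin mark, covered slightly more of the H3K4me3-free bins, by an amount that did not exceed the spread between chromosomes. These peaks were narrow, with a median width of 297 and 302 bp in H3K4me3-free bins and 295 and 297 bp in the other bins. H3K9me2 outside called peaks was not measured. The peaks covered 2299 and 1798 bp per Mb of H3K4me3-free bins, against 2052 and 1607 bp per Mb of the other bins, a ratio of 1.12 in both libraries. By chromosome, replicate 1 ranged from 1438 bp per Mb on chromosome 8 to 4010 on chromosome 2 in H3K4me3-free bins, against 1774 on chromosome 12 to 2598 on chromosome 1 in the other bins. In replicate 2 the range was 1106 to 3268 bp per Mb in H3K4me3-free bins and 1380 to 2081 bp per Mb in the other bins. These ranges overlapped throughout, and the chromosomes with the highest coverage in H3K4me3-free bins were 2, 4 and 1 in both libraries. With libraries averaged, H3K4me3-free bins had 2150 ± 781 bp per Mb and the other bins 1822 ± 233 (SD, 12 chromosomes). The difference of 328 ± 653 bp per Mb was positive on 7 of 12 chromosomes (adjusted exact sign-flip p = 0.139). Without the longest run on chromosome 4 it was 189.5 bp per Mb, with 2012 bp per Mb in H3K4me3-free bins and 1822 in the other bins (adjusted exact p = 0.299), and this alternative was chosen after seeing the data. The call depended on where the bins were cut, since bins shifted by 250 kb gave 416 bp per Mb (adjusted exact p = 0.0227) and bins of 250 kb gave 370 (adjusted exact p = 0.0234).

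Over all positions together, the share of bins with H3K9me2 found by both replicates was higher in H3K4me3-free bins. It was 36.4% (393 bins), against 32.1% (1622 bins) in the other bins and 32.8% of all bins. Over chromosomes it was 37.3% ± 6.77 in H3K4me3-free bins and 31.9% ± 4.65 in the other bins, a difference of 5.40 ± 5.26 points that was positive on 11 of 12 chromosomes (adjusted exact sign-flip p = 0.00293). On chromosome 1 it ran the other way, with 37.8% against 39.3%. The call was lost in 8 of 20 alternatives, among them when peaks of high local background were left out (3.61 points, adjusted exact p = 0.188) and when only the other bins next to an H3K4me3-free bin were compared (3.24 points, adjusted exact p = 0.131). It was also lost by position. The middle 40% gave 1.27 points, positive on 6 of 12 chromosomes, and the inner 70% gave 4.12 (adjusted exact sign-flip p = 0.687 and 0.0537). The outer 30%, added after seeing the data, gave 9.54 points (adjusted exact sign-flip p = 0.283). A single H3K9me2 base in replicate 1 was found in 89.5% of H3K4me3-free bins and 85.5% of the other bins, and in replicate 2 in 81.7% and 77.8%.

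The strength of single H3K9me2 peaks did not differ between the kinds of bin beyond the spread between chromosomes. There were 6.48 and 5.09 peaks per Mb in H3K4me3-free bins, against 5.91 and 4.59 in the other bins. Their median fold was 4.30 and 4.36, against 4.32 and 4.38, and the median peak in both kinds of bin rested on 15 fragments over its summit. Over chromosomes the median fold was 4.33 ± 0.193 in H3K4me3-free bins and 4.36 ± 0.112 in the other bins, a difference of −0.0236 ± 0.118 (adjusted exact sign-flip p = 0.497), although it was higher on 7 of 12. Of the peaks in H3K4me3-free bins, 22.9% and 29.3% were found again in the other replicate, against 20.05% and 25.8%. Over chromosomes these shares were 26.0% ± 9.75 and 22.2% ± 6.51 in the same order, and the difference of 3.79 ± 5.65 points missed the threshold of 0.05 (adjusted exact sign-flip p = 0.0637). A high local background was found for 9.27% and 11.6% of the peaks in H3K4me3-free bins, against 9.04% and 10.1%.

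**Figure D3:**
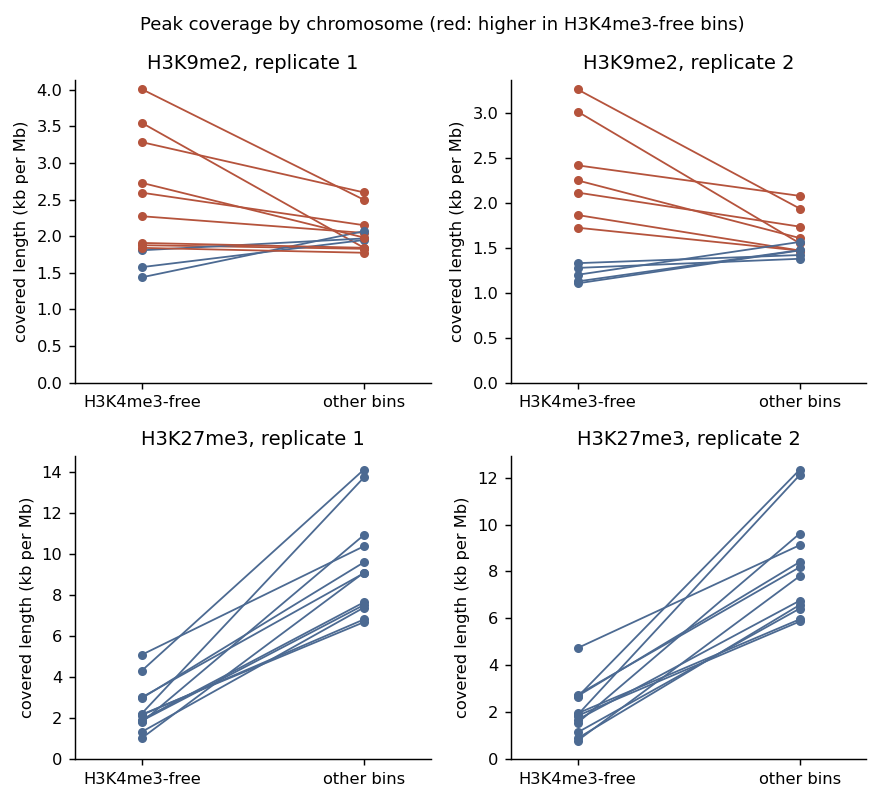
Each line joins the covered length of 1 chromosome, in kb per Mb, in its H3K4me3-free bins (left) and its other bins (right), for H3K9me2 (upper panels) and H3K27me3 (lower panels) in replicates 1 and 2. All 12 lines of H3K27me3 stand lower on the left in both libraries, while H3K9me2 stands higher on the left on 9 chromosomes in replicate 1 and on 7 in replicate 2.

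The 2 marks therefore stood apart in each library. The log2 ratio of coverage, H3K4me3-free over other bins, was 0.16 and 0.16 in the H3K9me2 libraries and −2.03 and −2.09 in the H3K27me3 libraries. Exact permutation of the mark labels over these 4 libraries gave p = 0.333, the smallest p that 2 against 2 libraries allow, so this difference of 2.22 could not pass the threshold.

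Taken by position, the H3K9me2 difference had opposite directions at the ends and in the middle of the chromosomes, while the H3K27me3 difference had the same direction throughout. In the outer 30%, H3K9me2 covered 5080 and 4386 bp per Mb of H3K4me3-free bins in replicates 1 and 2, against 2348 and 1953 of the other bins, or 2.16 and 2.25 times as much, and it was higher on 8 of 12 chromosomes. These ratios rested largely on a few rich bins: 10 of the 153 H3K4me3-free bins there held 51.6% and 57.0% of their H3K9me2 bases, against 9.42% and 10.5% held by 9 of the 1696 other bins. Without these bins, which belong to the 20 with the most H3K9me2 in the genome, the ratios were 1.23 and 1.14, an alternative added after seeing the data. In the stretches between, the values were 2121 and 1583 bp per Mb, against 1788 and 1338, and in the middle 40% they were 1725 and 1288, against 2002 and 1513. The mean difference in the middle 40% was −162 bp per Mb, positive on 1 of 12 chromosomes (adjusted exact sign-flip p = 0.00488). The outer 30% alone, a comparison added after seeing the data, gave 2817 bp per Mb (adjusted exact sign-flip p = 0.101). Whether the difference itself changed between the ends and the middle was not tested.

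The same opposite directions stood in the median bins. The median H3K4me3-free bin of the outer 30% had 841 and 578 bp of H3K9me2, against 545 and 366 bp in the other bins there, while in the middle 40% it had 677 and 507 bp, against 789.5 and 563.5 bp. Without peaks of high local background the ratios were 1.99 and 2.09 in the outer 30%, 1.12 and 1.09 between, and 0.940 and 0.913 in the middle. H3K27me3 covered 7035 and 5417 bp per Mb of H3K4me3-free bins in the outer 30%, against 19105 and 16788. In the middle 40% it covered 1011 and 881 bp per Mb, against 2591 and 2294. The H3K27me3 ratio stayed between 0.323 and 0.410 over the 3 position classes and both libraries, and no chromosome had more of it in H3K4me3-free bins in any class.

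**Figure D4:**
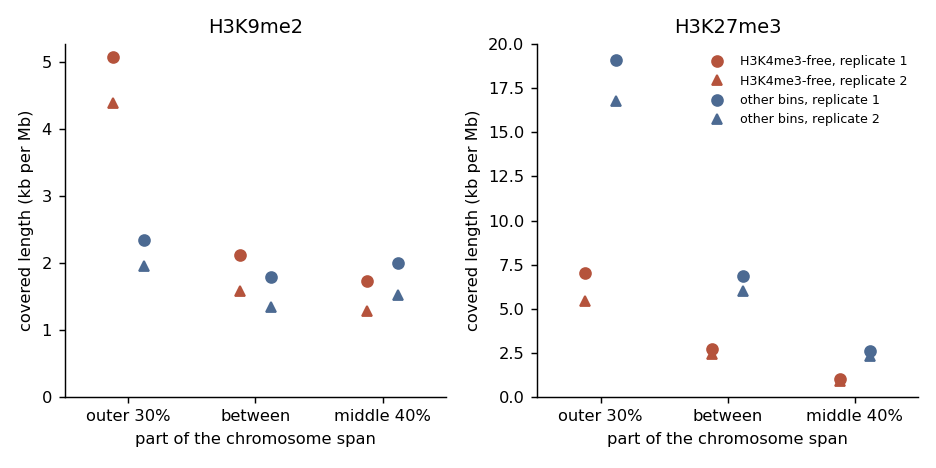
Points give the covered length in kb per Mb of H3K9me2 (left panel) and H3K27me3 (right panel) in H3K4me3-free bins (red) and other bins (blue) of the outer 30%, the stretches between and the middle 40% of the chromosomes, with circles for replicate 1 and triangles for replicate 2. H3K9me2 in H3K4me3-free bins is 2.16 and 2.25 times that of other bins at the ends (1.23 and 1.14 times without the 20 richest bins) and 0.862 and 0.851 times in the middle, and H3K27me3 is lower in H3K4me3-free bins in all 3 classes.

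H3K27me3 followed the amount of H3K4me3 in graded steps. The other bins were ranked by their shared H3K4me3 bases and cut into 4 equal classes of 1265 bins, holding 3 to 1379, 1380 to 2804, 2808 to 6012 and 6015 to 51945 shared bp. H3K27me3 coverage in replicate 1 was 2312 bp per Mb in H3K4me3-free bins and then 3669, 5206, 8369 and 20428 over the 4 classes. Replicate 2 gave the same order, with 1938, 3215, 4598, 7418 and 17860 bp per Mb. The share of bins in the middle 40% of the chromosomes went the other way along this order, with 58.8% of H3K4me3-free bins and then 55.8%, 45.8%, 33.4% and 8.62%.

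H3K9me2 differed less along the same order. Its coverage in replicate 1 was 2299 bp per Mb in H3K4me3-free bins and then 2217, 2075, 1959 and 1959 over the 4 classes, and in replicate 2 it was 1798, 1721, 1571, 1507 and 1628. The share of bins with shared H3K9me2 was 36.4% in H3K4me3-free bins and then 35.1%, 34.0%, 31.6% and 27.5%. The bins with the least H3K4me3 among the others thus lay close to the H3K4me3-free ones in H3K9me2, and further from them in H3K27me3.

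Bins beside the H3K4me3-free ones also held little H3K27me3. The 1341 other bins that adjoin an H3K4me3-free bin had 3762 and 3251 bp per Mb of H3K27me3, and the 3719 that do not had 11459 and 10085. Against adjoining bins alone, H3K4me3-free bins had 2261 bp per Mb and the neighbours 3518, a difference of −1257 bp per Mb that was negative on 12 of 12 chromosomes (adjusted exact sign-flip p = 0.00293). H3K9me2 coverage of the adjoining bins was 2115 and 1602 bp per Mb, and that of the bins further away 2030 and 1608.

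The longest stretch without shared H3K4me3 lay on chromosome 12. It was a run of 9 bins from 227000001 to 231500000, within a gap between shared H3K4me3 intervals from 226592664 to 231733835, or 5.14 Mb. In its 4.5 Mb it held 12279 and 6563 bp of H3K9me2 and 5900 and 5149 bp of H3K27me3 in replicates 1 and 2. It held 1 H3K4me3 peak of 277 bp in replicate 1 and none in replicate 2. The run lies at 87.5% of the chromosome's span, inside the class of 85% to 90% that stood out above. The run of 5 bins on chromosome 6, described next, lies at 88.9% of its chromosome and falls in the same class. Both runs are thus part of the 48 H3K4me3-free bins that this class holds over all chromosomes.

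The runs on chromosomes 7, 6 and 11 held both silent marks, in differing amounts. The 7 bins on chromosome 7 from 154000001 to 157500000 had 7180 and 3675 bp of H3K9me2 and 3629 and 4053 bp of H3K27me3, and held no H3K4me3 peak in either library. Most of this H3K27me3, 3147 and 2953 bp, lay in the single bin from 156000001 to 156500000. The 5 bins on chromosome 6 from 222000001 to 224500000 had 3670 and 2577 bp of H3K9me2 but 17925 and 17188 bp of H3K27me3. Here too most of the H3K27me3, 13560 and 12658 bp, lay in a single bin, from 223000001 to 223500000. The 5 bins on chromosome 11 from 84500001 to 87000000 had 5803 and 4009 bp of H3K9me2 and 10668 and 9771 bp of H3K27me3. On chromosomes 6 and 11, H3K27me3 thus exceeded H3K9me2 in both libraries, and its strongest peaks reached a fold of 28.6 and 39.0 on chromosome 6 and of 24.2 and 22.4 on chromosome 11. On chromosome 7 the order of the marks differed between replicates. In bases shared by both replicates, H3K27me3 exceeded H3K9me2 in each of these runs. The values were 3071 against 542 bp on chromosome 7, 13009 against 328 bp on chromosome 6 and 8427 against 852 bp on chromosome 11.

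The run on chromosome 4 stood apart for H3K9me2. Its 6 bins from 238000001 to 241000000, about 11.2 Mb from the end, lay in a gap of 3.50 Mb and held no H3K4me3 peak in either library. H3K9me2 covered 86999 and 91007 bp of these 3 Mb in replicates 1 and 2, and 26405 bp were shared. From the first bin to the last the values were 1854 and 1045 bp, 11454 and 9821, 17997 and 19033, 13573 and 12634, 24677 and 29555, and 17444 and 18919. All but the first bin were far above the median of 751 and 535 bp of H3K4me3-free bins, and among all 6139 bins ranked by H3K9me2 the 6 took ranks 911, 31, 12, 24, 3 and 14.

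The peaks of that run were many and weak. There were 198 and 207 H3K9me2 peaks, with a median fold of 4.06 and 4.14 and a highest fold of 6.14 and 8.87 at peaks of 29 and 27 fragments. High local background was found for 0 and 1 of them. H3K27me3 covered 6779 and 7848 bp of the run, and 53188 and 47826 bp of the single bin that begins 0.5 Mb behind it. Of the 10 bins before the run, 3 also held high H3K9me2, with 10060 and 11562, 9277 and 11222, and 8344 and 11558 bp. The pair of these that adjoins the run had H3K4me3 peaks of 13260 and 11923 and of 16324 and 16007 bp. High H3K9me2 thus also occurred in bins that carried H3K4me3. The first bin of the run, with 1854 and 1045 bp of H3K9me2, separated this pair from the rich bins of the run.

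**Figure D5:**
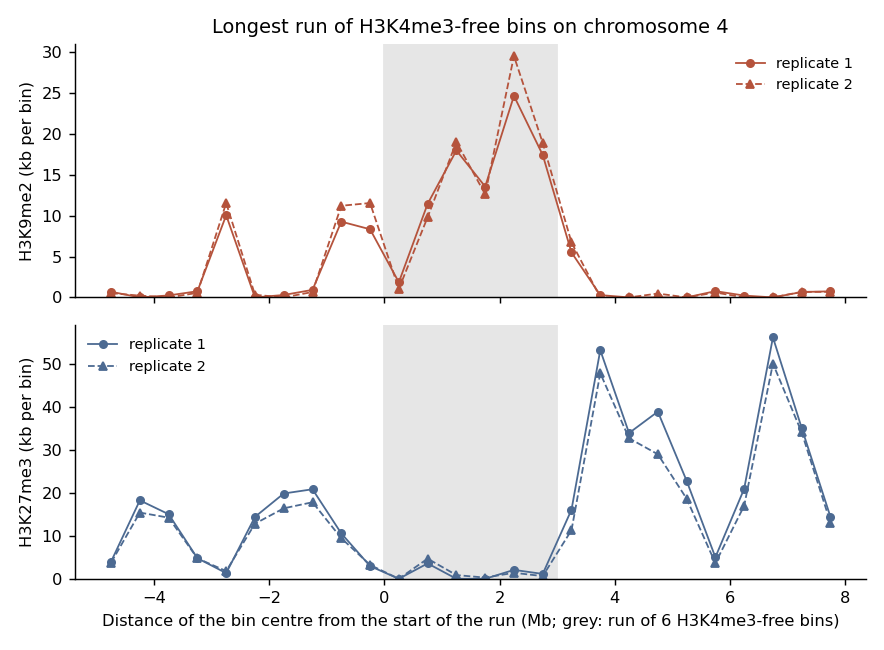
Points give the covered length per 500 kb bin, in kb, of H3K9me2 (upper panel) and H3K27me3 (lower panel) against the distance from the start of the longest H3K4me3-free run on chromosome 4, with the 6 bins of the run in grey, circles for replicate 1 and triangles for replicate 2. H3K9me2 rises to 24677 and 29555 bp in the last bin but one of the run, and H3K27me3 is at most 3575 and 4688 bp in any bin of it.

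Single H3K4me3-free bins with the most shared H3K9me2 were of different kinds. The bin from 240000001 to 240500000 on chromosome 4 belongs to the run just described, and the bins from 13500001 to 14000000 on chromosome 5 and on chromosome 10 resembled it. On chromosome 5, H3K9me2 covered 28918 and 23950 bp, on chromosome 10 it covered 23308 and 17479 bp, and in all 3 bins at most 2 peaks of a library had a high local background. Limiting peaks to −log10 q values of 5 or more left a mean of 10555, 14590.5 and 10772.5 bp on chromosomes 4, 5 and 10. The limit of 10 left 0 bp on chromosomes 4 and 5 and 352.5 bp on chromosome 10. Such a loss was not special to these bins. Over chromosomes, the limit of 10 lowered H3K9me2 coverage from 2150 to 250 bp per Mb in H3K4me3-free bins, chosen anew under that limit. In the other bins it fell from 1822 to 116 bp per Mb.

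The pair with the very most shared H3K9me2 looked otherwise. The bin on chromosome 7 from 22000001 to 22500000 had 30432 and 24701 bp of H3K9me2, of which 22469 bp were shared, and the bin on chromosome 2 from 500001 to 1000000 had 18859 and 17188 bp with 12615 bp shared. On chromosome 7 all 57 and 54 H3K9me2 peaks had a high local background, and on chromosome 2 so did 35 of 43 and 35 of 45. Peaks of H3K27me3 covered 35756 bp in replicate 1 and 2341 bp in replicate 2 on chromosome 7, and 18134 and 1763 bp on chromosome 2. Here too the local background was high, at all 75 peaks of replicate 1 on chromosome 7 and at 38 of 43 on chromosome 2. These bins also had the most H3K4me3 in a single replicate, where all 12 peaks on chromosome 7 and all 7 on chromosome 2 had a high background in replicate 2. Without peaks of high background no H3K9me2 was left in the bin on chromosome 7, and a mean of 2812.5 bp was left on chromosome 2.

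Such rich bins weighed heavily on the sums of the H3K4me3-free bins. The 5 H3K4me3-free bins with the most shared H3K9me2 held 58669 bp, or 21.7% of the 270873 shared bp in the 1079 bins. Of these, 22469 and 12615 bp lay in the bins on chromosomes 7 and 2 whose peaks mostly had a high local background. The 5 richest of the 5060 other bins held 52086 bp, or 5.12% of 1017075 shared bp. In bases the 2 sets of 5 were thus close, and their shares differ with the totals. Among the 20 bins of the genome with the most H3K9me2, 10 were H3K4me3-free, and among the first 200 there were 31, or 15.5%, which is close to the 17.6% of all bins. For H3K27me3 the counts were 1 of 20 and 5 of 200.

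The 5 H3K4me3-free bins with the most shared H3K27me3 lay between 7.64 and 38.96 Mb from the nearer chromosome end. The highest was on chromosome 12 from 8000001 to 8500000, with 48191 and 44968 bp in replicates 1 and 2, of which 37593 bp were shared, in 64 and 62 peaks of a fold up to 42.3 and 27.9. The bin after it, from 8500001 to 9000000, had 28795 and 22785 bp, so that the pair forms an H3K27me3-rich stretch of 1 Mb. On chromosome 6 from 15500001 to 16000000 there were 33328 and 31540 bp. The bin on chromosome 3 from 281500001 to 282000000 had 22203 and 17753 bp, and that on chromosome 1 from 294000001 to 294500000 had 19016 and 17403 bp. H3K9me2 in these 5 bins stayed at 2084 bp or less in either library, and no H3K27me3 peak of the bin on chromosome 12 from 8000001 had a high local background.

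At the very ends, the last bins of chromosomes 11, 12, 2 and 6 were H3K4me3-free. They were cut short by the last peak, and so held little sequence. The piece of chromosome 2 from 178500001 to 178541731 had 10227 and 11085 bp of H3K27me3 within 0.0417 Mb, with a top fold of 16.4 and 20.9. A high local background was found for 1 of its 8 and 2 of its 4 H3K27me3 peaks in replicates 1 and 2. The piece of chromosome 11 from 276000001 to 276035860 had 1868 and 1747 bp of H3K27me3. Neither the piece of chromosome 12 from 262000001 to 262037130 nor the one that ends chromosome 6, from 251000001 to 251077904, had more than 209 bp of H3K27me3 in either library. The next from an end was the full bin on chromosome 4 from 250000001 to 250500000, with 7307 and 2691 bp of H3K9me2 and 642 and 0 bp of H3K27me3.

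Sorted by the shared bases of both silent marks, most H3K4me3-free bins carried at most one of them. Shared H3K9me2 alone was found in 262 or 24.3% of them, against 588 or 11.6% of the other bins. Shared H3K27me3 alone was found in 240 or 22.2%, against 2345 or 46.3%. Both were found in 131 or 12.1%, against 1034 or 20.4%, and neither in 446 or 41.3%, against 1093 or 21.6%.

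Bins without a peak in any of the 6 libraries numbered 25, all of them H3K4me3-free by the rule. Chromosome 5 held 5 of them, chromosomes 1, 9 and 11 held 3 each and chromosome 6 held none, and no more than 2 of them adjoined each other. Whether reads can be placed in these bins was not analysed here.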

How the data were processed

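Chromatin immunoprecipitation libraries of 3 histone marks, 2 replicates each, were compared along the genome of young pepper leaves. Per the labels' protocols, leaf powder was cross-linked with 1% formaldehyde for 10 min, and the libraries were read as pairs of 150 bp. The submitters' processing notes name MACS2 2.2.7.1, deepTools 3.3.0, BWA 0.7.17 and Trimmomatic 0.38. Settings and the genome build: not given in the sources used here. The authors deposited 1 peak list per immunoprecipitated library, with a fold enrichment per peak (a linear ratio over local background) and, as −log10, its p-value and q-value. The smallest −log10 q of a deposited list was 2.01 to 2.02. The 6 input samples were not analysed here as separate values.

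Peaks that overlapped or touched were merged, and the covered bases of each 500 kb bin were summed per library. The last peak end stood for the length of a chromosome. Fragments over a summit were recovered from fold and p, within 0.01 of a whole number. For total reads per library, the sources used here give no value. The lists held 34528 and 33968 peaks for H3K4me3, 38177 and 33316 for H3K27me3, and 19218 and 15109 for H3K9me2, with medians of 73 and 80, 21 and 20, and 15 and 15 fragments. H3K9me2 is thus the least precise.

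H3K4me3-free minus other bins was computed within each chromosome. Exact two-sided sign flips tested it over chromosomes with at least 5 bins of each kind, using Benjamini-Hochberg adjustment over 6 tests and a threshold of 0.05. The log2 ratios of libraries were compared by exact permutation of mark labels. The statistics were tested on simulated data. Bins were named by rule: the 5 longest runs (ties by chromosome number), the 5 bins with the most shared H3K9me2 and the 5 with the most shared H3K27me3, the 5 nearest to an end, 5 on each side of the H3K4me3 limit, and the 2 highest and 2 lowest chromosomes. The alternatives were other bins (250 kb, 1 Mb, shifted by 250 kb, last bins left out), peak limits (−log10 q of 5 or 10, fold of 3, local background), an overlap of 1 bp, H3K4me3 in either replicate, single replicates, position classes and neighbouring bins. The members, lists and tests were chosen with earlier results of these data known. No genome sequence was used here. Computations used Python 3.11.15, numpy 2.4.6, scipy 1.17.1 and matplotlib 3.10.9.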

Additional observations from a re-analysis of the deposited data

Results flagged for a closer look

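The log2 ratio of coverage, H3K4me3-free over other bins, was higher by 2.22 in the H3K9me2 libraries than in the H3K27me3 libraries. The test of this difference, an exact permutation over 4 libraries, gave p = 0.333, the smallest it can give.

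Peaks outside the 12 chromosomes, on further sequences of the assembly, enter no bin. They numbered 788 and 767 in the H3K9me2 libraries, 893 and 218 in the H3K27me3 libraries and 61 and 113 in the H3K4me3 libraries.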

How the results depend on the processing

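Both H3K27me3 results kept their direction and call under all 20 alternatives, with coverage differences from −11018 to −1257 bp per Mb and share differences from −38.4 to −12.7 points. The number of H3K4me3-free bins depended on bin width, with 4401 of 12270 at 250 kb and 166 of 3074 at 1 Mb. The H3K9me2 coverage difference passed the threshold as 370 bp per Mb in 250 kb bins, 416 in shifted bins and 134 with −log10 q limited to 10 or more, and reversed to −162 in the middle 40%. Under the limit of 10, the bins of high local background on chromosomes 7 and 2 still held means of 22965 and 10668.5 bp of H3K9me2. Whether the difference of 134 holds without these bins was not tested. With limited background and no such q limit it was 157 bp per Mb (adjusted exact sign-flip p = 0.479). The share of bins with shared H3K9me2 missed the threshold at 8.67 points in 1 Mb bins (11 chromosomes), 2.44 and 0.833 with −log10 q limited to 5 and to 10 or more, 3.61 with limited background, 4.12 in the inner 70%, 1.27 in the middle 40%, 3.24 against adjoining bins and, added after seeing the data, 9.54 in the outer 30%. The share of H3K9me2 peaks found again passed at 3.33 points (250 kb), 4.20 (shifted) and 3.94 (against bins that do not adjoin). The difference in median H3K9me2 fold changed sign to 0.00233 (250 kb), 0.00198 (shifted), 0.0460 (H3K4me3 in neither replicate), 0.00873 (fold of at least 3), 0.0405 (limited background) and 0.00397 (middle 40%), and ranged from −0.0295 to 0.0448 with single libraries left out. The causes were not tested. The library difference kept its sign in 21 of 21 alternatives, from 0.87 to 2.68. With the replicate number as a block it was again 2.22, with an exact permutation p of 0.5, the smallest possible. Deviations of same-numbered libraries correlated at −0.0230, −0.00285 and 0.0270 over 6139 bins. An effect on a whole library would not show in these values. Whether same-numbered libraries share a plant or a batch is not given in the labels and was not tested. The 5 named runs were recounted only under alternatives that leave the bin edges in place, and 35 of 35 counts stayed within 1.5 times. The limits on q and fold and the omission of last bins could not lower these counts, so their values carry no support. Only the settings for the H3K4me3 replicates could lower them. With no H3K4me3 peak base of either replicate allowed, the run on chromosome 12 kept 8 of 9 bins and that on chromosome 6 kept 4 of 5. The runs on chromosomes 7, 4 and 11 kept all their bins. Of the values of the named bins, 13 of 30 moved for H3K9me2 and 6 of 30 for H3K27me3. The weakest called H3K9me2 peaks rested on 8 fragments, so what lies below that was not detectable at this depth.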
